A study of Homo sapiens with 6 samples.

Results

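Regulators of mRNA decay were followed in A375, a human cell line of a BRAF-mutant melanoma, after treatment with CuB. The series title gives its full name, cucurbitacin B, a plant triterpenoid. The members were the 10 rows of the deposited expression table whose gene name is in the ZFP36 family (ZFP36, ZFP36L1 and ZFP36L2) or the BTG/TOB family (BTG1, BTG2, BTG3, TOB1 and TOB2), or is ZC3H12A or ELAVL1, out of 58735 genes in all. Each of the 10 had a single row and each passed the filter on low values, a mean of at least 1 FPKM over all libraries (FPKM is fragments per kilobase of gene, scaled for library size). The CuB group was A375 cells given CuB for 6 h, with 3 libraries, and the DMSO group was the same line given the solvent for 6 h, also with 3 libraries. The dose of CuB is uncertain, since the protocol gives 0.2 µM and the library names give 100 nM. Both groups are 1 cell line in culture with no other agent, and polyadenylated RNA was sequenced. The labels do not say that replicates were separate cultures, so p-values measure the spread between these libraries, which may be technical.

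The lifetime of an mRNA is set largely by how fast its poly(A) tail is removed. ZFP36, ZFP36L1 and ZFP36L2 are zinc finger proteins that bind AU-rich elements in the 3' untranslated region (3' UTR) of cytokine and growth-related mRNAs and bring in the CCR4-NOT deadenylase complex. BTG and TOB proteins bind the catalytic deadenylase subunits of the same complex, and TOB proteins also bind the poly(A)-binding protein. ZC3H12A encodes Regnase-1, an endonuclease that cuts stem-loops in the 3' UTR of inflammatory mRNAs, and ELAVL1 encodes HuR, a protein that binds AU-rich and U-rich sequences and in many mRNAs opposes decay. Several of these genes are themselves short-lived transcripts of the immediate early response.

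The libraries held from 15502971 to 16137093 fragments assigned to genes with CuB and from 14845976 to 15797757 with DMSO. Of 12 markers of the melanocyte lineage and melanoma, SOX10, the lineage transcription factor, averaged 217.9 FPKM with CuB and 197.8 FPKM with DMSO, while PMEL, TYR, TYRP1 and DCT, genes of pigmentation, stayed below 1 FPKM in every library. Of the 7 markers that could be tested 2 rose and 2 fell in the test described below, while 22.9% of all tested genes rose and 15.6% fell. S100B, a calcium-binding protein of melanocytes, was at 6.64 ± 0.161 FPKM with CuB and 26.4 ± 1.61 FPKM with DMSO, and AXL, a receptor kinase of dedifferentiated melanoma, at 81.7 ± 7.06 FPKM with CuB and 29.3 ± 3.68 FPKM with DMSO (SD, n = 3 each). S100A1 fell by 0.98 and MCAM rose by 0.70 on the log2 scale, and the part of these changes in the members' results was not tested. The markers are named beyond the fixed rule, after their values were seen. The summed level of these 12 was 385.5 to 489.5 FPKM with CuB and 330.2 to 479.2 FPKM with DMSO. The 12 markers of keratinocytes, leukocytes, endothelium and fibroblasts summed to 2.61 to 4.72 FPKM with CuB and 3.944 to 4.402 FPKM with DMSO, with 10 of them below 1 FPKM in every library and 0 of them at 0 in all. Libraries of 1 group also differed by transcript GC content: in the tertile of genes with the highest GC content the median deviation from the group mean was -0.14 in CuB replicate 1 and 0.12 in CuB replicate 3, and 0.22 in DMSO replicate 2 (log2 units).

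Most of the members were higher with CuB. Of the 10 genes 7 rose, 1 fell and 2 did not pass the test, limma's moderated test on log2(FPKM + 1) with Benjamini-Hochberg adjustment over 13273 tested genes at a threshold of 0.05. Among all tested genes 22.9% rose and 15.6% fell. Of the 5118 genes that changed as deposited 59.5% rose. The share was 46.5% of 4993 when all libraries were brought to 1 FPKM sum, 47.2% of 4751 when quantiles were equalized and 39.1% of 5146 at equal fragment totals. The last of these moved the median log2 fold change of all genes by -0.14, and 8, 7 and 7 members passed under these 3 scalings. ZFP36, ZC3H12A, BTG1 and BTG2, 4 of the 10, rose by at least 1 on the log2 scale, as did 4.87% of all tested genes. In 8 members every CuB value lay above every DMSO value, which was so in 29.8% of tested genes, and in 1 member, ELAVL1, every CuB value lay below, which was so in 21.7%. The median log2 fold change of the members was 0.87, against 0.05 over all tested genes. Folds on the log2(FPKM + 1) scale understate the change of genes with low values. Without CuB replicate 2 the count of changed genes was 3264, and 6 members passed, BTG3 and ELAVL1 no longer among them.

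**Figure D1:**
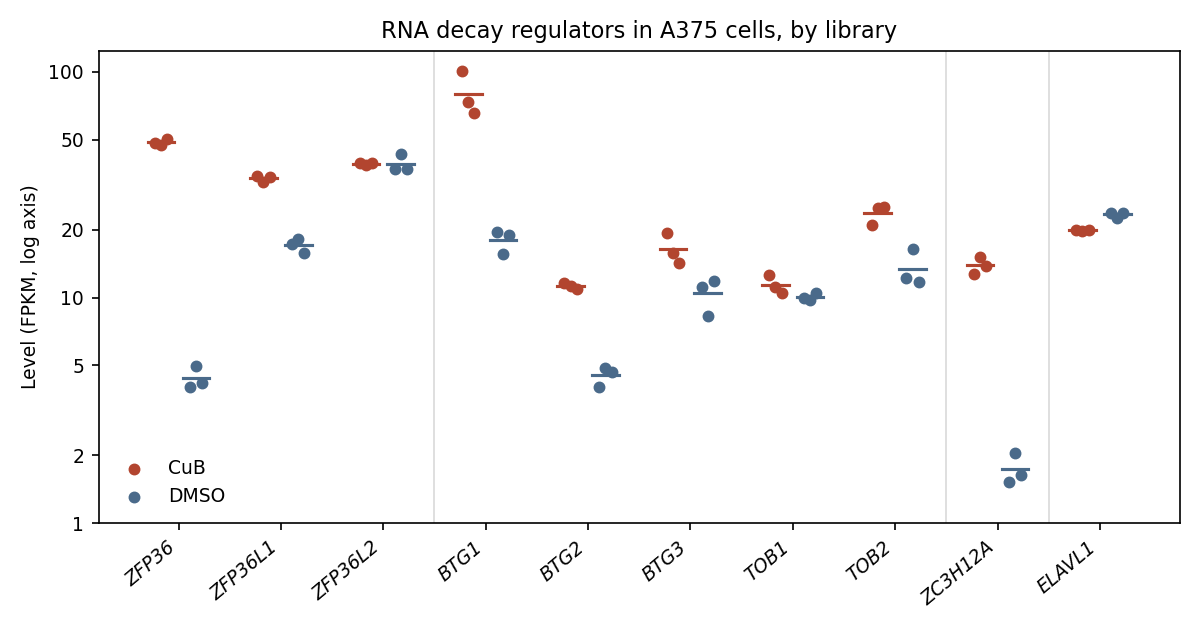
Level of each member in each library, in FPKM on a log axis, with CuB left of DMSO within each gene; points are libraries (replicates 1 to 3 from left to right) and lines are group means. ZFP36 lies between 47.5 and 50.4 FPKM with CuB and between 4.02 and 4.95 FPKM with DMSO, while the points of ZFP36L2 overlap between the groups.

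The 3 genes of the ZFP36 family did not move alike. ZFP36, which encodes tristetraprolin, had 48.3, 47.5 and 50.4 FPKM in CuB replicates 1 to 3, against 4.02, 4.95 and 4.17 FPKM in DMSO replicates 1 to 3. The groups stood far apart and the CuB libraries were close to each other. The means were 48.7 ± 1.49 FPKM with CuB and 4.38 ± 0.5004 FPKM with DMSO (SD, n = 3 each), 11.1-fold, with a log2 fold change of 3.21 (SE 0.0915, limma adjusted p = 3.82e-06). ZFP36L1, its paralog that also acts in differentiation, had 34.6, 32.4 and 34.4 FPKM with CuB, against 17.3, 18.1 and 15.8 FPKM with DMSO. The groups again did not overlap, and the ratio of the means was 1.98 (log2 fold change 0.95, SE 0.0819, limma adjusted p = 0.000236). ZFP36L2, the third paralog and the most abundant member with DMSO, had 39.3, 38.8 and 39.6 FPKM with CuB, against 37.1, 43.4 and 37.1 FPKM with DMSO. Its groups overlapped, with a log2 fold change of 0.01 (95% interval -0.20 to 0.21, limma adjusted p = 0.953), and its sign turned under other scalings, down to -0.22 after quantile normalization. Bulk values cannot tell fewer cells expressing a gene from less RNA per cell.

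Each gene of the ZFP36 family holds a match to a sequence motif of its own proteins. The AU-rich nonamer TTATTTATT, a site that these proteins bind, was searched on the transcript strand of the longest 3' UTR of each gene in GENCODE 29 (GRCh38). It was present once in ZFP36, ZFP36L1, ZFP36L2 and ELAVL1 and in no other member, and in 9.62% of the 10819 tested genes with an annotated 3' UTR. A match is a description and not evidence of binding. The sites are shown with their flanks so that the shared letters can be compared, the nonamer in capitals.
ZFP36, chr19:39409196-39409225, plus strand: tatgacgactTTATTTATTctaatatgatt
ZFP36L1, chr14:68788076-68788105, minus strand: aactgttggaTTATTTATTttagaaattcc
ZFP36L2, chr2:43223447-43223476, minus strand: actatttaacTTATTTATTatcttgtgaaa
ELAVL1, chr19:7961827-7961856, minus strand: atttatgtatTTATTTATTgaagtgtgaaa
The 3 ZFP36 family genes and ELAVL1 all hold the nonamer, and their log2 fold changes were 3.21, 0.95, 0.01 and -0.22. The nonamer starts at base 507 of a 3' UTR of 713 bases in ZFP36, base 2393 of 2828 in ZFP36L1, base 853 of 1917 in ZFP36L2 and base 1637 of 4904 in ELAVL1. The shorter AU-rich core TATTTAT, which also counts matches inside the nonamer, occurred 3 times in each ZFP36 family gene and 5 times in ELAVL1, against 0 times in TOB1 and ZC3H12A.

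The make-up of the family differed as well. FPKM is scaled by gene length, so levels can be summed across genes. The 3 genes summed to 121.8 ± 2.88 FPKM with CuB and 60.6 ± 5.08 FPKM with DMSO (SD, n = 3 each). ZFP36 held 39.53%, 40.01% and 40.50% of that sum in the CuB libraries, against 6.89%, 7.46% and 7.32% in the DMSO libraries. The share of ZFP36L2 was 32.3% ± 0.417 with CuB and 64.6% ± 0.958 with DMSO, while that of ZFP36L1 was 27.7% ± 0.501 with CuB and 28.2% ± 1.26 with DMSO. ZFP36L2 was thus the leading family transcript in each DMSO library and ZFP36 in each CuB library. These shares are within a library and do not depend on the scaling between libraries.

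**Figure D2:**
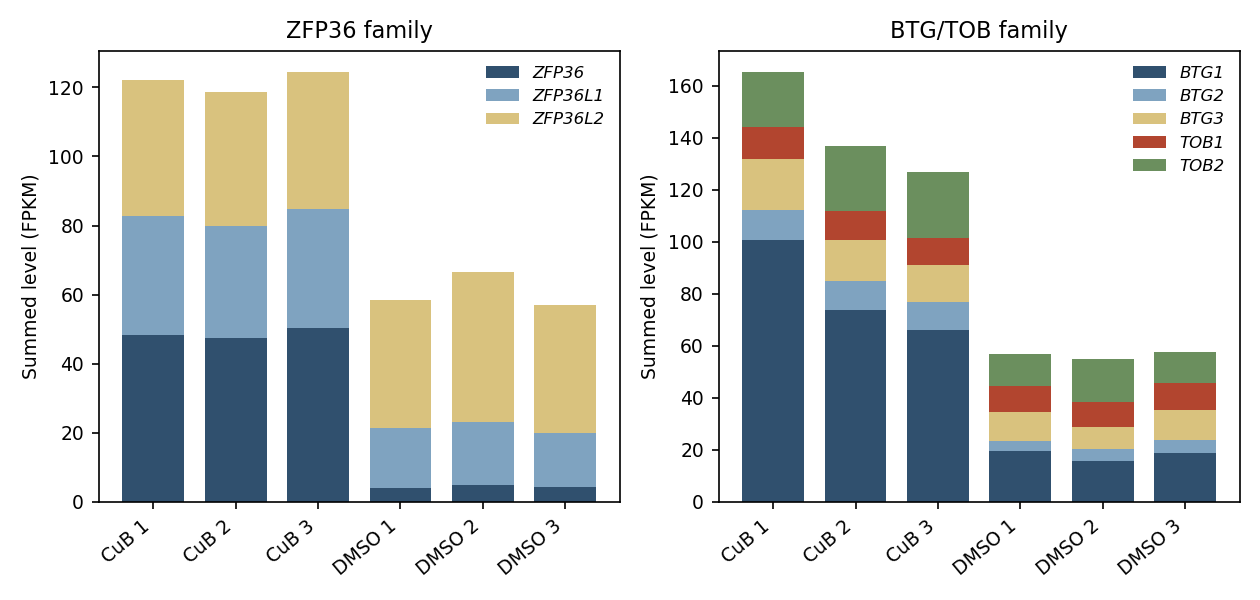
Summed level in FPKM of the ZFP36 family (left) and the BTG/TOB family (right) in each library, CuB libraries left of DMSO libraries, with each gene as a coloured segment. The ZFP36 segment makes up 39.5% to 40.5% of the left bars with CuB and 6.89% to 7.46% with DMSO. The BTG1 segment leads the right bars in every CuB library and in DMSO replicates 1 and 3. In DMSO replicate 2 TOB2 leads, at 29.8% against 28.5% for BTG1.

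Of the 5 BTG/TOB genes 4 rose and TOB1 did not pass. BTG1, an antiproliferative gene first found at a translocation in B cell leukemia, had 100.7, 73.7 and 66.0 FPKM with CuB, against 19.5, 15.6 and 18.9 FPKM with DMSO. It became the most abundant member with CuB, and its CuB libraries spread more widely than those of any other member. The means were 80.1 ± 18.2 FPKM with CuB and 18.005 ± 2.091 FPKM with DMSO (SD, n = 3 each), 4.45-fold, with a log2 fold change of 2.08 (SE 0.167, limma adjusted p = 0.000173). BTG2, a p53 target and immediate early gene, had 11.6, 11.3 and 10.9 FPKM with CuB, against 3.99, 4.85 and 4.69 FPKM with DMSO. Its groups did not overlap, at 2.499-fold (log2 fold change 1.16, SE 0.0912, limma adjusted p = 0.000159).

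BTG3, a cell cycle inhibitor of the same family, had 19.4, 15.8 and 14.2 FPKM with CuB, against 11.2, 8.29 and 11.8 FPKM with DMSO. The lowest CuB value stood above the highest DMSO value, at 1.58-fold (log2 fold change 0.61, SE 0.160, limma adjusted p = 0.0219). BTG3 lost the call without CuB replicate 1 (limma adjusted p = 0.0577) or CuB replicate 2 (0.0624), without the filter on low values (0.0601), with equal fragment totals (0.0541) and after quantile normalization (0.0615). TOB2, which binds both deadenylases and poly(A)-binding protein, had 20.9, 24.8 and 25.2 FPKM with CuB, against 12.2, 16.3 and 11.7 FPKM with DMSO. The groups did not overlap, at 1.76-fold (log2 fold change 0.78, SE 0.141, limma adjusted p = 0.00522). TOB1, its close paralog, had 12.6, 11.2 and 10.5 FPKM with CuB, against 9.95, 9.76 and 10.5 FPKM with DMSO. The groups were apart by a narrow margin, 10.51 FPKM in the lowest CuB library and 10.47 FPKM in the highest DMSO library, and the difference did not pass (log2 fold change 0.16, 95% interval -0.05 to 0.38, limma adjusted p = 0.192).

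The family summed to 142.9 ± 19.97 FPKM with CuB and 56.4 ± 1.39 FPKM with DMSO (SD, n = 3 each). BTG1 held 55.6% ± 4.68 of the sum with CuB and 31.9% ± 3.04 with DMSO, and TOB1 8.02% ± 0.364 with CuB and 17.8% ± 0.341 with DMSO. BTG2 held 7.97% ± 0.816 with CuB and 8.01% ± 0.917 with DMSO.

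The order of libraries within a group went along with GC content in some members. BTG1, BTG3 and TOB1 have GC contents of 38.7%, 43.2% and 42.1% in their longest transcript, and each was highest in CuB replicate 1 and lowest in CuB replicate 3. BTG2, at 50.3%, had the same order in the CuB group. TOB2, at 54.1%, was lowest in CuB replicate 1 and highest in DMSO replicate 2. After a smooth curve on GC content was removed from each library, the SD of BTG1 on the log2 scale was 0.191 in the CuB group, against 0.312 as deposited, and in the DMSO group 0.0512, against 0.164 as deposited. That of TOB2 was 0.0824 in the CuB group, against 0.142 as deposited. In the CuB group the spread grew in other members, to 0.0891 in ZFP36, against 0.0430 as deposited, and to 0.0667 in ZFP36L2, against 0.0152. It was also larger in ELAVL1, at 0.0397 against 0.0125, and in ZC3H12A, at 0.134 against 0.116. In the DMSO group the spread grew in TOB1 alone, to 0.0789, against 0.0474 as deposited. With this correction the same 7 members rose and ELAVL1 fell. Whether GC content sets these differences was not tested.

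ZC3H12A, the gene of the endonuclease Regnase-1, had the second largest rise among the members. It had 12.8, 15.2 and 13.8 FPKM with CuB, against 1.52, 2.04 and 1.64 FPKM with DMSO. It was the least abundant member with DMSO, at 73, 104 and 80 fragments, against 565, 704 and 643 fragments with CuB. The means were 13.9 ± 1.198 FPKM with CuB and 1.73 ± 0.268 FPKM with DMSO (SD, n = 3 each), 8.02-fold, with a log2 fold change of 2.45 (SE 0.108, limma adjusted p = 1.3e-05). At a pseudocount of 0.1 in place of 1 the log2 fold change was 2.94.

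ELAVL1, the gene of HuR, moved the other way and by little. It had 19.97, 19.66 and 19.97 FPKM with CuB, against 23.8, 22.6 and 23.6 FPKM with DMSO. All CuB values lay below all DMSO values, at a ratio of 0.851 (log2 fold change -0.22, SE 0.0697, limma adjusted p = 0.0425). The call was lost without the variance trend (limma adjusted p = 0.0574), and when CuB replicate 1 (0.0833), CuB replicate 2 (0.157), CuB replicate 3 (0.111), DMSO replicate 1 (0.158) or DMSO replicate 3 (0.119) was left out. Its log2 fold change stayed negative in every alternative fit, from -0.40 to -0.21.

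**Figure D3:**
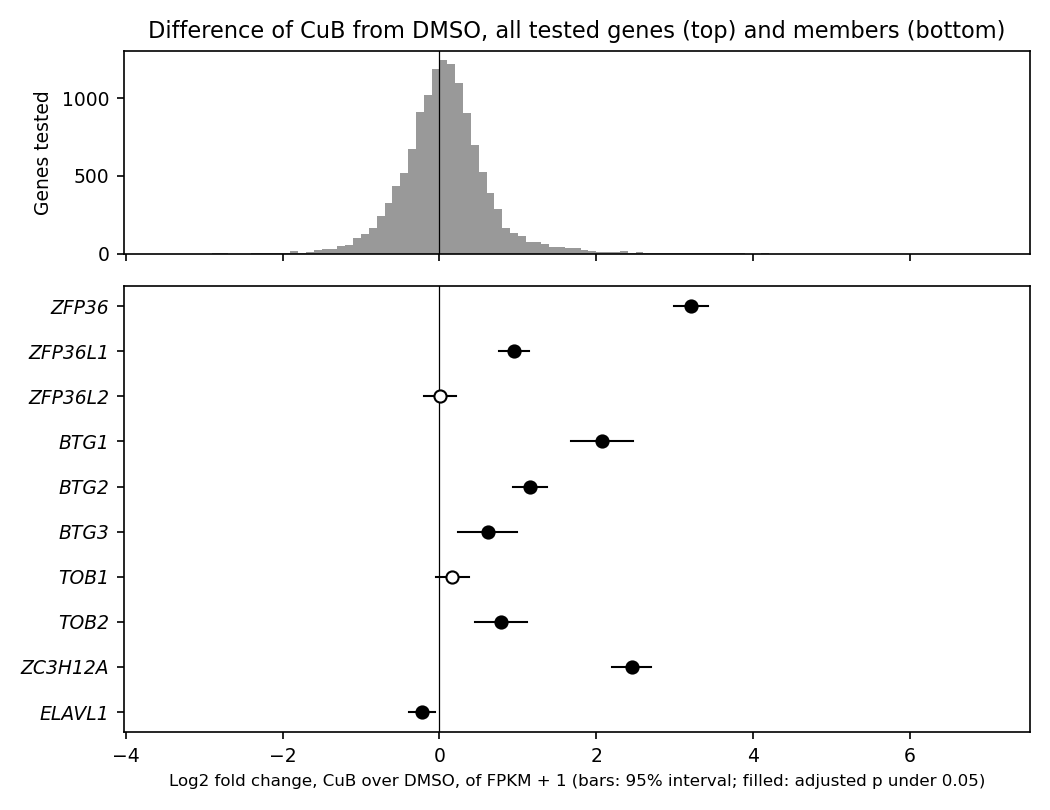
Log2 fold change of CuB over DMSO on the FPKM + 1 scale, as a histogram of the 13273 tested genes (top) and for each member (bottom), with bars for the 95% interval and filled points for an adjusted p under 0.05. ZFP36 at 3.21, ZC3H12A at 2.45 and BTG1 at 2.08 lie in the upper tail of the histogram, and the intervals of ZFP36L2 and TOB1 include 0.

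The order of the members by level was changed. With CuB it ran BTG1, ZFP36, ZFP36L2, ZFP36L1, TOB2, ELAVL1, BTG3, ZC3H12A, TOB1 and BTG2, from 80.1 down to 11.3 FPKM. With DMSO it ran ZFP36L2, ELAVL1, BTG1, ZFP36L1, TOB2, BTG3, TOB1, BTG2, ZFP36 and ZC3H12A, from 39.2 down to 1.73 FPKM. Neighbours whose library values overlapped were BTG3 with ZC3H12A and TOB1 with BTG2 in the CuB group. In the DMSO group they were BTG1 with ZFP36L1, ZFP36L1 with TOB2, TOB2 with BTG3, BTG3 with TOB1, and BTG2 with ZFP36. ZFP36 was thus the second of the members with CuB and the ninth with DMSO.

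The members lie on GRCh38 on chromosome 19 (ZFP36, ENSG00000128016, from 39406813 to 39409412, and ELAVL1, ENSG00000066044, from 7958579 to 8005659), chromosome 14 (ZFP36L1, ENSG00000185650, from 68787660 to 68796253) and chromosome 2 (ZFP36L2, ENSG00000152518, from 43222402 to 43226609). The BTG/TOB genes lie on chromosome 12 (BTG1, ENSG00000133639, from 92140278 to 92145897), chromosome 1 (BTG2, ENSG00000159388, from 203305491 to 203309602), chromosome 21 (BTG3, ENSG00000154640, from 17593653 to 17612947), chromosome 17 (TOB1, ENSG00000141232, from 50862223 to 50867978) and chromosome 22 (TOB2, ENSG00000183864, from 41433492 to 41447023). ZC3H12A (ENSG00000163874) lies on chromosome 1 from 37474552 to 37484379. Strand is not kept by the library kit, so fragments where a gene overlaps one on the opposite strand cannot be assigned to either. BTG1 shares 2637 bases with LINC01619 on the same strand, which averaged 0.536 FPKM with CuB and 1.14 FPKM with DMSO. BTG3 shares 1204 bases with BTG3-AS1 (0.520 FPKM with CuB and 0.351 FPKM with DMSO), and TOB1 shares 1300 bases with TOB1-AS1 (0.0415 FPKM with CuB and 0.185 FPKM with DMSO). The antisense genes AC025164.1 at BTG1 and AC010336.6 at ELAVL1, and MIR6732 within ZC3H12A, were below 0.1 FPKM in every library.

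Upstream of the members' starts, 250 bases before each RefSeq start (GRCh38.p14) were searched on both strands, for the 8 members with an entry. The EGR motif, GCGTGGGCG or GCGGGGGCG, was found in BTG2 and ZC3H12A, and in 8.41% of 13076 windows of tested genes and 5.37% of all 35116 windows. Its letters overlap those of the GC box, which was not searched. The cyclic AMP response element TGACGTCA was found in 1 of the 2 windows of ZFP36L1, and in 2.59% of windows of tested genes and 1.65% of all. CCAAT was found in BTG1, BTG2, TOB1 and ZFP36L1, and in 33.5% of windows of tested genes and 32.0% of all. AP-1 (TGANTCA), the ATF4-CEBP composite (TGATGNAAT), the CArG box and NF-kB had 0 matches in these windows, against 4.37%, 0.436%, 1.03% and 6.03% of windows of tested genes and 6.57%, 0.889%, 1.16% and 5.21% of all. The windows of ZC3H12A, BTG2 and ZFP36L1 are shown as those that hold the EGR motif or the cyclic AMP response element among genes that rose, with matches in capitals.
ZC3H12A, chr1:37474330-37474579, plus strand: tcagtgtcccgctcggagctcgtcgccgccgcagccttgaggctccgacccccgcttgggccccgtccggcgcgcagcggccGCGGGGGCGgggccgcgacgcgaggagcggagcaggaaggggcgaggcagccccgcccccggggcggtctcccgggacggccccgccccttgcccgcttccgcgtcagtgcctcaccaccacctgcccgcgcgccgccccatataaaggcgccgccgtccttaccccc
BTG2, chr1:203305269-203305518, plus strand: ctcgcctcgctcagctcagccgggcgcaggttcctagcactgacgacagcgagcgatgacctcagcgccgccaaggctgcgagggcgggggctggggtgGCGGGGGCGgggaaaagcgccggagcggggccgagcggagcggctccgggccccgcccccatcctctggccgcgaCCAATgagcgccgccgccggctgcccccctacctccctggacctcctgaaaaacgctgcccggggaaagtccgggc
ZFP36L1, chr14:68793417-68793666, minus strand: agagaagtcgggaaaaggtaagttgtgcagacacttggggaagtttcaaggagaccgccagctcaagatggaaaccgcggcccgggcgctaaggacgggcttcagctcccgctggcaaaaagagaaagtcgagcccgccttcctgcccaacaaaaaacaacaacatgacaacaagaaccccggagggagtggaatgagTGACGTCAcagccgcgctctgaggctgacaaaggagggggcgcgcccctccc
In ZC3H12A the EGR match runs from base -168 to -160 before the start, and in BTG2 from -151 to -143, where a CCAAT at -76 to -72 is also in capitals. The ZFP36L1 match runs from -52 to -45.

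Genes of the general decay machinery had lower median changes than the members, whose median log2 fold change was 0.87. The shares of machinery genes that rose were near that of all tested genes, and single genes rose more than some members. Of 13 tested deadenylase genes 3 rose, 1 fell and 9 did not pass, while 22.9% of all tested genes rose and 15.6% fell. Their median log2 fold change was 0.21, against 0.05 over all tested genes. CNOT3, a scaffold subunit of CCR4-NOT, was at 16.1 ± 1.63 FPKM with CuB and 10.7 ± 1.95 FPKM with DMSO (log2 fold change 0.56, limma adjusted p = 0.018). CNOT1, the central scaffold, rose by 0.37, and PAN2, the catalytic subunit of the other deadenylase complex, fell by 0.31. The count of rises depended on the scaling, with 0 with equal fragment totals or after quantile normalization and 1 when all libraries were brought to the same FPKM sum. The count over all tested genes moved too, from 3046 of 13273 as deposited to 2010 of 13207 with equal fragment totals. It was 2242 of 13273 after quantile normalization and 2320 of 13295 with the same sum. The catalytic subunits to which BTG and TOB proteins bind, CNOT7 and CNOT8, did not pass, at 0.06 and -0.02; they are named beyond the fixed rule, after their values were seen.

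Of 19 genes of decapping and decay from the 5' end 5 rose, 0 fell and 14 did not pass, with a median of 0.19. The shares over all tested genes were 22.9% and 15.6%. PATL1, which links deadenylation to decapping, was at 39.0 ± 2.79 FPKM with CuB and 19.0 ± 1.57 FPKM with DMSO (log2 fold change 1.00, limma adjusted p = 0.000334). EDC3, an enhancer of decapping, rose by 0.60 and DCP2, the decapping enzyme, by 0.50. Under the other scalings from 2 to 5 rose. With the same FPKM sum, equal fragment totals or quantile normalization 1 fell, and with the GC correction 8 rose and 2 fell. The falls over all tested genes under these scalings were, in the same order, 2673 of 13295, 3136 of 13207 and 2509 of 13273. With the GC correction 4015 of 13265 tested genes rose and 3591 fell. Of 16 exosome and SKI genes 4 rose, 1 fell and 11 did not pass as deposited, with a median of 0.14. Among all tested genes 22.9% rose and 15.6% fell as deposited. EXOSC8 and EXOSC6, core subunits of the exosome, rose by 0.47 and 0.34, and DIS3L, a cytoplasmic exosome nuclease, fell by 0.32. None of the exosome rises was kept under equal fragment totals, quantile normalization or rescaling to the same sum, where 0 rose.

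A further list held BTG4 and other proteins, which bind AU-rich elements, stem-loops, poly(A) or other sites in mRNAs. Of its 24 genes 18 could be tested, of which 7 rose, 0 fell and 11 did not pass (median 0.26). By comparison, 22.9% of all tested genes rose and 15.6% fell. ZC3H12C, a paralog of Regnase-1, was at 11.1 ± 1.1996 FPKM with CuB and 3.09 ± 0.712 FPKM with DMSO (log2 fold change 1.58, limma adjusted p = 0.000346). CPEB4, which binds cytoplasmic polyadenylation elements, rose by 1.27, and RC3H1, which encodes Roquin-1, a stem-loop binding repressor, by 0.58. With equal fragment totals 5 rose and after quantile normalization 4, while with the GC correction 12 rose and 1 fell. Under that correction 4015 of 13265 tested genes rose and 3591 fell.

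Of 11 kinases and phosphatases that act on ZFP36 proteins or their kinases 4 rose, 1 fell and 6 did not pass (median 0.29). Beside them stand 22.9% of all tested genes that rose and 15.6% that fell. Under 3 of the 4 other scalings 3 rose and 2 fell. DUSP1, the phosphatase that switches off p38, was at 61.4 ± 1.43 FPKM with CuB and 6.59 ± 0.781 FPKM with DMSO (log2 fold change 3.05, limma adjusted p = 3.82e-06). MAP2K3, a kinase that activates p38, rose by 1.64, and MAP2K6, the other such kinase, fell by 0.73. MAPKAPK2, the kinase that phosphorylates ZFP36 downstream of p38, rose by 0.60; it is named beyond the fixed rule and was chosen after its values were seen. Phosphorylation of the proteins cannot be read from mRNA levels.

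**Figure D4:**
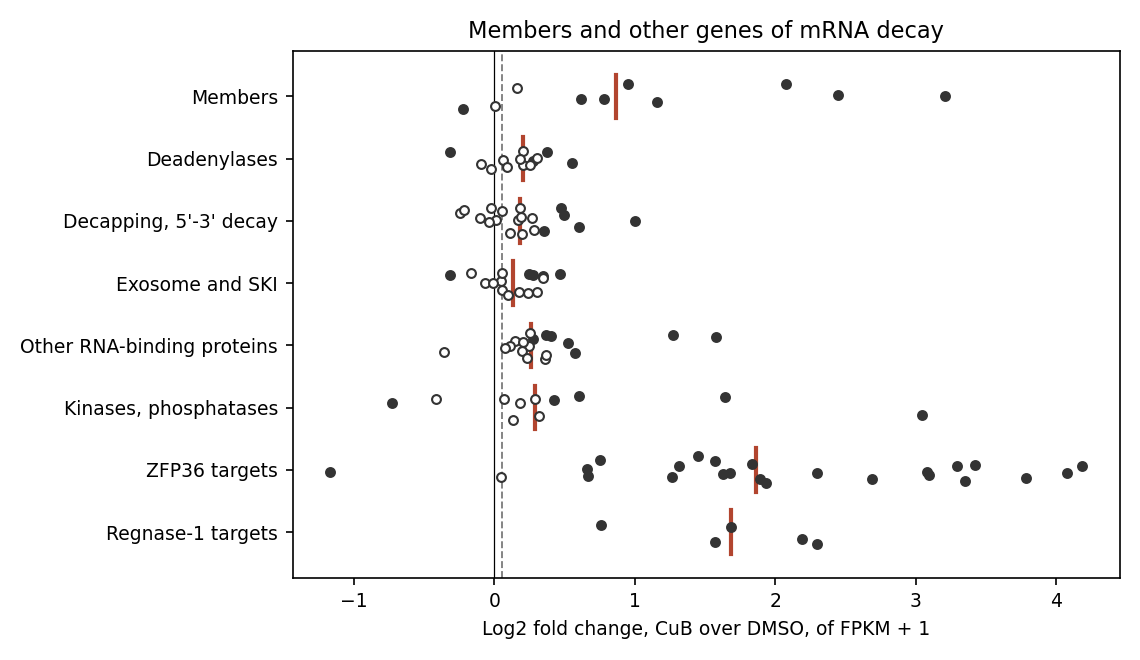
Log2 fold change of CuB over DMSO on the FPKM + 1 scale for the tested genes of each list, 1 point per gene, filled where the adjusted p was under 0.05; red lines are list medians and the dashed line is the median of all tested genes at 0.05. The deadenylase, decapping and exosome lists have medians of 0.21, 0.19 and 0.14, and the list of ZFP36 targets has a median of 1.86.

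Textbook targets of the rising decay factors were themselves higher with CuB. Of 28 listed ZFP36 targets with AU-rich elements 24 could be tested, of which 22 rose, 1 fell and 1 did not pass. Among all tested genes 22.9% rose and 15.6% fell. The median log2 fold change of the targets was 1.86, and the same counts were found under each of the other scalings. TNF, PTGS2, CSF2 and CCL20 averaged 0.113, 0.287, 0.671 and 0.755 FPKM with DMSO. They passed the filter on low values only through the CuB libraries, so they could not have counted as falls. The lists were chosen with earlier results of these data known. The largest rises were IL11 at 4.18, CXCL8 at 4.08 and BIRC3, an inhibitor of apoptosis, at 3.78. MYC fell by 1.17, and HIF1A, at 0.05, did not pass; they are named as the exceptions, after their values were seen. Of 11 listed Regnase-1 targets 5 could be tested and all 5 of these rose, with PTGS2, the inducible cyclooxygenase, at 2.29, NFKBIZ, a nuclear IkB protein, at 2.19 and REL, an NF-kB subunit, at 1.69. PTGS2, IL6 and IL1B stand in both lists, and PTGS2 passed the filter in both only through its CuB values. Many of these genes are also known as transcriptional targets of AP-1 or NF-kB, and mRNA levels do not separate synthesis from decay. Of the 24 tested ZFP36 targets 14 held the AU-rich nonamer, as did 9.62% of the tested genes with an annotated 3' UTR. The list was made of targets with AU-rich elements, so this count describes the list and is no finding of these data.

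Over all genes the nonamer went with a small difference. Of 1041 tested genes with at least 1 nonamer in the 3' UTR 27.7% rose and 13.6% fell (median log2 fold change 0.11), against 24.9% and 15.3% of the 9778 genes without it (median 0.08). Genes with the nonamer have longer 3' UTRs, with a median of 3056 bases, against 1261 bases without it. When tested genes were divided into tertiles by 3' UTR length, a division chosen after these values were seen, the share that rose was 36.6% of 101 genes with the nonamer and 23.3% of 3505 without it in the shortest tertile. It was 29.3% and 26.9% in the middle tertile and 25.7% and 24.6% in the longest tertile. The share that rose was higher with the nonamer than without it in each tertile under each of 4 other scalings and with the GC correction, where the shortest tertile had 38.6% and 32.2%. The share that fell in the shortest tertile was 10.9% with the nonamer and 13.8% without it as deposited, but was higher with it under the GC correction, at 28.7% and 26.0%, and at equal fragment totals, at 22.8% and 21.7%. It was also higher with it when libraries were brought to 1 FPKM sum, at 18.8% and 18.2%, and when quantiles were equalized, at 18.8% and 18.5%. This is a description of gene classes, for which no test was run. The classes include the 24 tested ZFP36 targets, of which 14 hold the nonamer, so they are not separate from that list. Genes that passed the filter on low values only through the CuB libraries also stay in the classes. Such genes could not have counted as falls. ZFP36, with a 3' UTR of 713 bases, belongs to the shortest tertile.

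**Figure D5:**
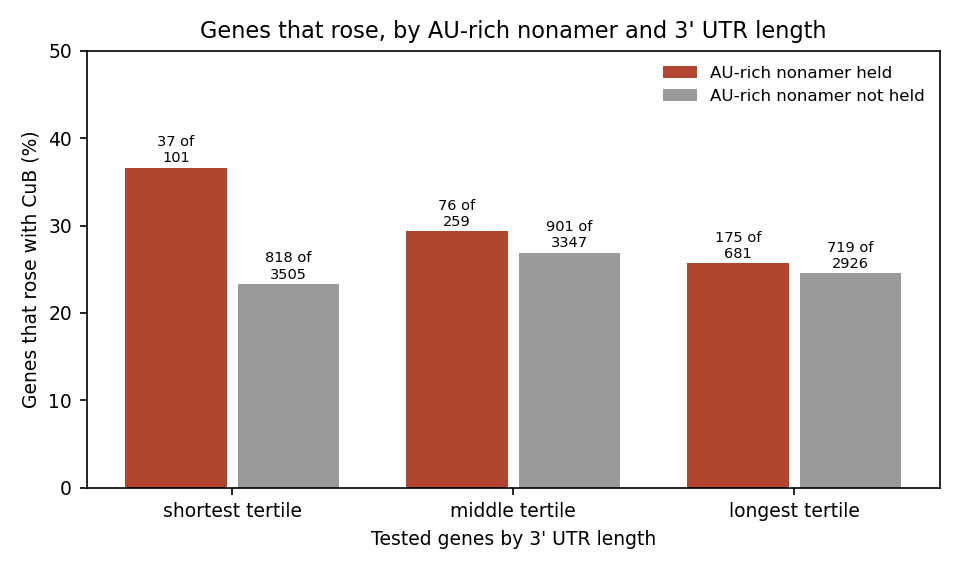
Share of tested genes that rose with CuB, in percent, by 3' UTR length and by whether the 3' UTR holds the AU-rich nonamer, with the number of genes above each bar. The share is 36.6% with the nonamer and 23.3% without it in the shortest tertile, and 25.7% and 24.6% in the longest. The listed ZFP36 targets are among these genes.

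The genes whose pattern over the 6 libraries was most like that of ZFP36, by Pearson's r of log2(FPKM + 1) among 10864 other tested protein-coding genes, were NFYC (r = 0.9998), DUSP1 (r = 0.9998) and EZR (r = 0.9997). For BTG2 they were TRAF1 (r = 0.9994), SDC4 (r = 0.9987) and NNMT (r = 0.9986), and for ZC3H12A they were DLX2 (r = 0.9996), ICAM1 (r = 0.9994) and PCK2 (r = 0.9993). With only 2 groups such values are common: 2103 genes had an r over 0.9 with ZFP36, 2034 with BTG2 and 2078 with ZC3H12A.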

How the data were processed

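Sequencing libraries (3 CuB, 3 DMSO) were made with a TruSeq kit, per the labels' protocols. The authors deposited FPKM for 58735 genes on GRCh38, per the submitters' processing notes. Which aligner, counter and library size they used is not given in these sources. FPKM multiplied by gene length and by a library size read from its steps gave whole fragments, within 0.01 of a fragment, for 100% of values above 0. That library size was 0.914 to 0.927 of the summed fragments in CuB libraries and 1.03 to 1.04 of them in DMSO libraries. All 58735 gene identifiers and coordinates matched GENCODE 29. Columns were assigned by library name, and 0 were left unused. The table holds FPKM, so the main test was on the log scale, and limma-voom on the recovered fragments was an alternative. The test used log2(FPKM + 1) of the 13273 genes averaging at least 1 FPKM, with limma 3.58.1 in R 4.3.3, a variance trend on level and no replicate block. The limma step was also run on simulated fragments with known changes. That simulation had the same dispersion for every gene and no GC differences between libraries, so it does not measure error rates in these data. Motifs were searched and plots drawn with Python 3.11.15 and matplotlib 3.10.9. Lists were described by counts and medians. The results for 1 further motif are not reported here. Named genes were the members, the 3 passing genes of each list with the largest fold change, genes that overlap a member, and the 3 genes most like ZFP36, BTG2 and ZC3H12A. The members, the lists and the tests were chosen with earlier results of these data known. Alternatives were other pseudocounts, filters, scalings and variance models, limma-voom, a GC correction, the replicate block and leaving out each library.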

Additional observations from a re-analysis of the deposited data

How the results depend on the processing

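Each member had 20 alternative fits. ZFP36, ZFP36L1, BTG1, BTG2, TOB2 and ZC3H12A kept their direction and stayed past the threshold in all 20, and TOB1 stayed short of it in all 20. From 6 to 8 members passed in every fit. The count of changed genes was 5118 as reported, 3250 among genes of at least 5 FPKM (fewer genes tested), 7606 with the GC correction and 7188 with the GC correction and the replicate block, and 3264 to 5725 when a library was left out (lowest without CuB replicate 2, with 1945 up and 1319 down; without DMSO replicate 1, 1316 fell). ZFP36L2, with no call, changed sign with the same sum (-0.0934), equal fragment totals (-0.15), quantile normalization (-0.22) and the GC correction with or without the block (-0.0417), and ranged from -0.0295 to 0.0811 with a library left out. BTG3 missed the threshold without the filter (0.61), with equal fragment totals (0.46) and after quantile normalization (0.46), and ranged from 0.47 to 0.71 with a library left out. ELAVL1 missed it without the trend and with the replicate block (-0.22 each, limma adjusted p = 0.133 with the block), and ranged from -0.24 to -0.21 with a library left out. The causes were not tested. With the replicate block 4443 genes and 7 members passed, and 2 deadenylase, 4 decapping and 1 exosome gene rose. With the GC correction 6, 8 and 5 of these rose. Over all tested genes 2647 of 13273 rose with the block and 4015 of 13265 with the GC correction. Deviations from the group means correlated at 0.27, 0.12 and -0.36 for replicates 1, 2 and 3, and CuB replicates 1 and 3 correlated best with another number. Since libraries of 1 group also differed by GC content, these correlations cannot decide whether the replicate numbers pair the libraries. The edgeR fit on recovered fragments was not run; limma-voom on them called 5379 genes and 8 members. ZC3H12A rests on the fewest fragments, 73 to 104 per DMSO library. Groups of 3 cannot go below p = 0.1 in an exact permutation test of 1 value, so no such test is given.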

Other observations

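Of the other paralogs of the members, 6 averaged under 1 FPKM over all libraries and were not tested; they are named after their values were seen. ZC3H12B, a Regnase paralog, averaged 0.347 ± 0.0876 FPKM with CuB and 0.917 ± 0.138 FPKM with DMSO (SD, n = 3 each). ZC3H12D averaged 0.0335 ± 0.0109 FPKM with CuB and 0.0439 ± 0.0398 FPKM with DMSO. ELAVL2, a neuronal HuR paralog, averaged 1.11 ± 0.226 FPKM with CuB and 0.609 ± 0.0885 FPKM with DMSO, and ELAVL3 and ELAVL4 stayed below 0.1 FPKM in every library. BTG4, the oocyte member of the BTG family, reached at most 0.0373 FPKM in a CuB library and was listed at 0 in every DMSO library. ZC3H12A and ZC3H12C were the Regnase transcripts above 1 FPKM on average in either group, at 13.9 and 11.1 FPKM with CuB and 1.73 and 3.09 FPKM with DMSO.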
